A study of Mus musculus with 6 samples.

Results

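The genes described here encode potassium channels that set the resting potential of sensory neurons: 7 two-pore domain (K2P) genes, Kcnk1, Kcnk2, Kcnk3, Kcnk10, Kcnk12, Kcnk13 and Kcnk18, and 2 Kv7 genes, Kcnq3 and Kcnq5. They were found by NCBI gene identifier, and all 9 were among the 36528 genes listed for each library. RNA was measured in lumbar dorsal root ganglia of female mice aged 12 to 18 weeks, and every mouse of both groups was homozygous for a floxed Scn9a gene (Scn9a loxP/loxP), which encodes the sodium channel Nav1.7. Mice positive for pCAAG.Cre.ER (CreER-positive, n = 3) were compared with littermates negative for it (control, n = 3). CreER is a Cre recombinase that is activated by tamoxifen, and the series title calls the knockout global. No label states when or at what dose tamoxifen was given. Each library held the RNA of the 6 ganglia at L4 to L6 of 1 mouse, and differences between libraries therefore include those between animals. Replicate numbers only name the mice.

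K2P channels are leak channels: they are open at rest, carry potassium out of the cell and hold the membrane potential negative. Each K2P subunit has a pair of pore loops, and subunits assemble as dimers. Kv7 channels carry the M-current, a slow current that opens near threshold and limits repetitive firing, and that closes when Gq-coupled receptors deplete the membrane lipid PIP2. In dorsal root ganglia both kinds are known as brakes on the excitability of sensory neurons.

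Scn9a itself measured 635, 611 and 557 CPM in control mice against 620, 565 and 574 CPM in CreER-positive mice, where CPM is the count scaled to the library total. The log2 fold change of Scn9a was -0.04 (edgeR adjusted p 0.916). Its count covers the whole gene and not the floxed part alone, so this value does not check the genotype labels. Total counts ranged from 40237131 to 63332040 per library. Over the 9 genes they ran from 226 (Kcnq3) to 4147 (Kcnq5) per library, so that counting error averaged from 1.68% (Kcnq5) to 5.25% (Kcnq3). The coefficient of variation over the controls exceeded counting error for Kcnk18 (11.9% against 4.43%) and lay below it for Kcnk10 (0.441% against 3.30%).

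None of the 9 genes passed the test for a difference between the groups. Every estimate was slightly higher in the CreER-positive mice, from 1.92% (Kcnk1) to 23.5% (Kcnq3). In the edgeR fit of the counts as deposited, no 95% interval reached beyond a fold of 0.853 (Kcnk3) downwards or 1.48 (Kcnq3) upwards. At an adjusted p under 0.05 (quasi-likelihood test of edgeR, Benjamini-Hochberg over 22043 genes) 0 of 9 were called, where 160 genes (0.726%) were called over the whole table, 0.177% higher and 0.549% lower. DESeq2 and limma-voom also called 0 of the 9, where they called 1.93% and 0.721% of all genes, and 0.708% and 0.163% as higher. At an unadjusted edgeR p under 0.05 there were 3, Kcnk2, Kcnk13 and Kcnq3, all higher, where 10.5% of all tested genes reached that level and 4.99% did so as higher. The median log2 fold change was 0.09 over the 9 genes and 0.00 over all tested genes, of which 50.9% had an estimate above 0. Relative to the summed counts of 10 pan-neuronal markers, 5 of the 9 estimates stayed above 0, and those of Kcnk1, Kcnk3, Kcnk10 and Kcnk12 were below it. The median was 0.00, against -0.08 for all tested genes on that scaling. Most of the summed marker counts came from Tubb3, Uchl1, Prph and Snap25.

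**Figure D1:**
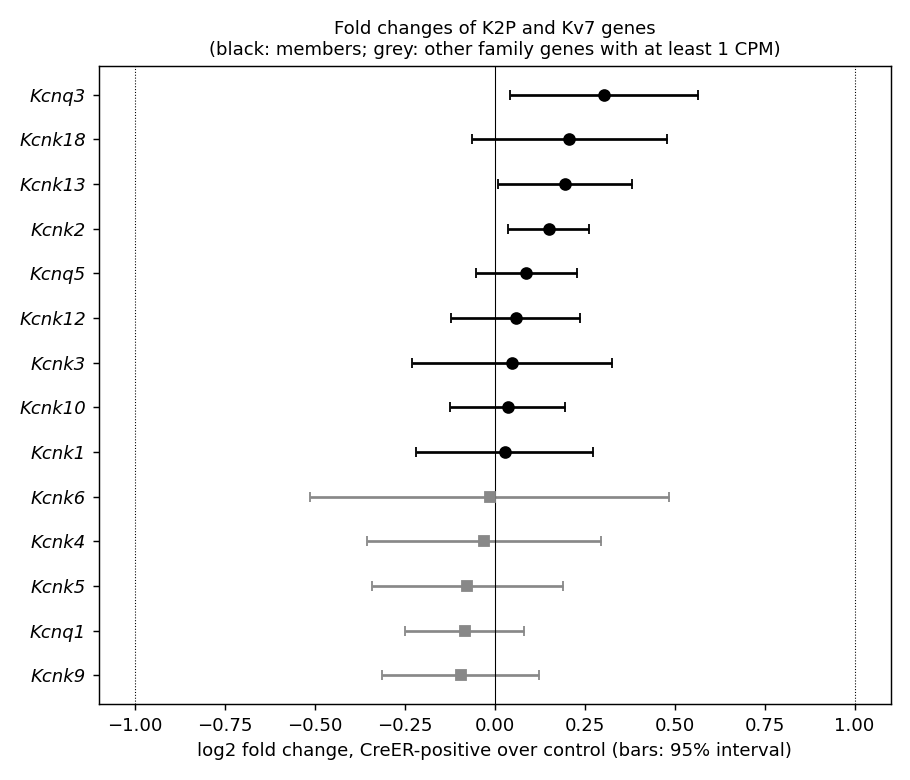
The log2 fold change of CreER-positive over control mice is drawn on the horizontal axis with its 95% interval for the 9 genes (black circles) and for 5 other K2P and Kv7 genes with at least 1 CPM in the controls (grey squares). Dotted lines mark a doubling and a halving. The black estimates lie between 0.03 and 0.30, and no interval reaches a dotted line.

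Levels of different genes were compared only per length, as CPM (with edgeR's TMM factors) per kilobase of the gene width in the deposited files, which for most genes is the full gene span with introns. On this scale Kcnk1 had the highest level of the 9 genes in the controls, 1.55 ± 0.107 (SD, n = 3). Kcnk12 (0.535 ± 0.0157), Kcnk3 (0.520 ± 0.0750) and Kcnk18 (0.496 ± 0.0589) followed, and their ranges over the control libraries overlapped, so their order was not resolved. Kcnk2 (0.214 ± 0.00553) and Kcnk13 (0.162 ± 0.00516) came next and were separate. Kcnk10 (0.112 ± 0.000493) and Kcnq5 (0.112 ± 0.00830) were not distinguishable, and Kcnq3 was lowest (0.0207 ± 0.00221). Per kilobase of summed exons of the GENCODE M21 annotation, Kcnk1 and Kcnk12 again had the highest levels of the 9 and Kcnq3 the lowest. On that scale Kcnk2 (8.43 ± 0.218) and Kcnq5 (8.21 ± 0.609) ranked 3 and 4 of the 9 but were not distinguishable, and Kcnk18 ranked 7. The rank of Kcnk2 rests on its count as deposited, which may include reads of a pseudogene within the gene. That pseudogene has 56.0% as many counts as Kcnk2.

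**Figure D2:**
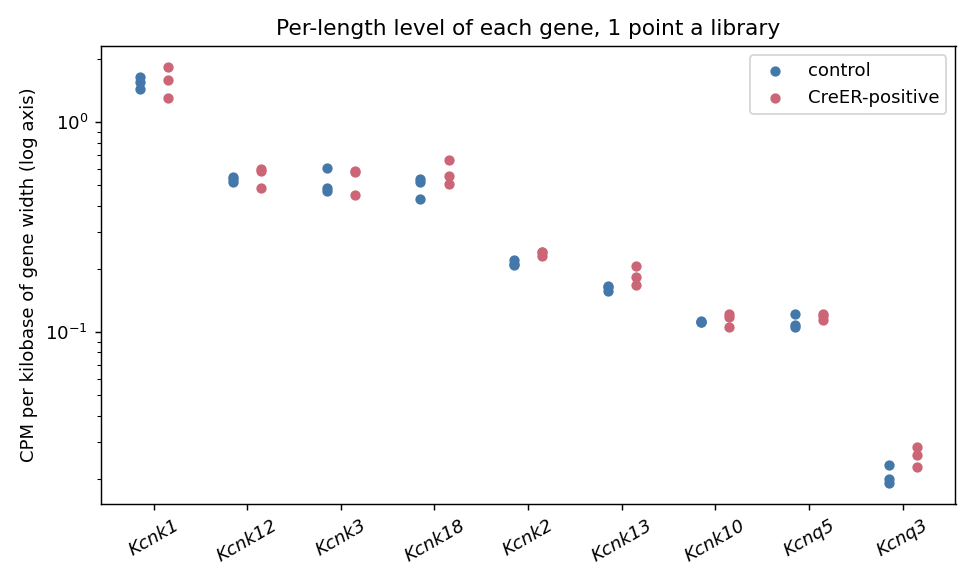
Each point is 1 library, with CPM per kilobase of gene width on a log axis and the 9 genes in the order of their control mean. Control (blue) and CreER-positive (red) points lie close together for each gene, while the genes span from 0.0207 (Kcnq3) to 1.55 (Kcnk1) in the controls.

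Sequences upstream of the start are shown for one member of the THIK branch and for TRESK, to print what the gene starts of these channels look like. In the RefSeq table for GRCm38.p6, 7 of the 9 genes have an entry, and for 4 of them (Kcnk10, Kcnk12, Kcnk18 and Kcnq5) a window of 250 bases lies upstream of the whole annotated gene. A GC box (GGGCGG, or CCGCCC on the other strand), the sequence bound by Sp1, is in capitals. It is found in 32.7% of all 32851 windows of this length in the table. The first window, chr17:87797995-87798244 on the minus strand, holds 1 GC box, and the second, chr19:59219398-59219647 on the plus strand, holds none.
Kcnk12: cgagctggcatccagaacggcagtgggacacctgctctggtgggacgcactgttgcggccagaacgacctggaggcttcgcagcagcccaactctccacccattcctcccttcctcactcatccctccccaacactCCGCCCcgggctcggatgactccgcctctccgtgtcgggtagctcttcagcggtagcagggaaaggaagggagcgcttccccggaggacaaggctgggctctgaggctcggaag
Kcnk18: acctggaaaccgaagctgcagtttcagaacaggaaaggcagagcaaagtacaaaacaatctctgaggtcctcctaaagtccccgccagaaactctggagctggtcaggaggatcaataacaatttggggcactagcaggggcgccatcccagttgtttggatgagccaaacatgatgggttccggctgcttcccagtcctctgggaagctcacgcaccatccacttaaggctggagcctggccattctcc
The Kcnk12 window is 64.8% G and C with 16 CpG dinucleotides, and the Kcnk18 window is 53.6% G and C with 5, where the median over all windows is 52.4% and 6. Of the other windows upstream of the whole gene, that of Kcnk10 has 1 GC box and that of Kcnq5 has 0. A match describes the letters in the window and not a bound site.

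The TREK genes encode leak channels that are opened by stretch, heat and membrane lipids. Kcnk2 (TREK-1; GRCm38 chromosome 1, 189207930 to 189402782) measured 41.3, 42.9 and 40.9 CPM in control mice against 47.0, 44.8 and 47.0 CPM in CreER-positive mice. All 3 CreER-positive libraries lay above all 3 controls, as they did for 6.63% of all tested genes. Its log2 fold change of 0.15 ± 0.05 (SE) had a 95% interval from 0.04 to 0.26 and an edgeR adjusted p of 0.300. The count of Kcnk2 is uncertain, because the pseudogene Pdcd5-ps lies within the span of the gene, with 8232 counts over the 6 libraries against 14706 for Kcnk2. The sources used here do not say whether the reads of a nested gene also count for its host. With those counts taken off, Kcnk2 measured 16.5, 20.0 and 16.7 CPM in control mice against 23.0, 20.3 and 19.1 CPM in CreER-positive mice, so that the groups overlapped, with a log2 fold change of 0.23 and an edgeR adjusted p of 0.442. Its level per kilobase was then 0.0908, below that of Kcnk10 and Kcnq5.

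Kcnk10 (TREK-2; chromosome 12, 98429432 to 98578213) had 16.7, 16.7 and 16.5 CPM in the controls, the smallest spread of the 9 genes (SD 0.0732). The CreER-positive libraries had 18.0, 17.5 and 15.6 CPM, on both sides of the controls. On the log2 scale the difference was 0.04 ± 0.07 (95% interval -0.12 to 0.20), with an edgeR adjusted p of 0.909.

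The acid-sensitive channel TASK-1 is encoded by Kcnk3 (chromosome 5, 30588170 to 30625270). It measured 17.4, 22.5 and 18.0 CPM in control mice against 21.6, 21.6 and 16.7 CPM in CreER-positive mice. Control replicate 2 was the highest library and CreER-positive replicate 3 the lowest. Its log2 fold change of 0.05 ± 0.12 had the lowest lower bound of the 9 genes (95% interval -0.23 to 0.33), with an edgeR adjusted p of 0.935. The non-coding gene Gm9899 (30573987 to 30588619) shares only 450 bases with Kcnk3 and has 22.5% as many counts. Taking all of these off gave a log2 fold change of 0.09 and a Kcnk3 mean of 14.7 CPM in the controls. Most of Gm9899 lies outside Kcnk3, so this subtraction may take off too much.

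TWIK-1, a weakly conducting leak channel, is encoded by Kcnk1 (chromosome 8, 125993655 to 126030685). It measured 51.1, 55.3 and 58.7 CPM in control mice against 56.4, 65.4 and 46.6 CPM in CreER-positive mice. The highest and the lowest library were both CreER-positive, replicates 2 and 3. Control and CreER-positive means of 55.0 ± 3.80 and 56.1 ± 9.43 CPM (SD, n = 3) gave 0.03 ± 0.11 on the log2 scale (95% interval -0.22 to 0.27), and the edgeR adjusted p was 0.963.

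The THIK genes encode leak channels that are inhibited by halothane; THIK-1, from Kcnk13, is best known as the resting potassium channel of microglia. Kcnk13 (chromosome 12, 99963149 to 100062682) measured 16.4, 16.1 and 15.4 CPM in control mice against 20.3, 17.9 and 16.5 CPM in CreER-positive mice. The CreER-positive libraries lay above all controls, as for 6.63% of all tested genes, but the lowest of them exceeded the highest control by little. An estimate of 0.20 ± 0.08 on the log2 scale had a 95% interval of 0.01 to 0.38 and an edgeR adjusted p of 0.448. Of 6 macrophage markers, edgeR called 0, where it called 0.726% of all genes. Their summed level was 41.8 to 57.4 CPM in the controls and 47.6, 47.3 and 84.6 CPM in CreER-positive replicates 1 to 3. Kcnk13 was lowest of the CreER-positive libraries where that sum was highest, and the part of macrophages in its level was not tested.

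Kcnk12 (THIK-2; chromosome 17, 87745821 to 87797994), a subunit that is largely held inside the cell, measured 29.3, 31.0 and 30.1 CPM in control mice against 33.1, 33.7 and 27.4 CPM in CreER-positive mice. CreER-positive replicates 1 and 2 lay above all controls and replicate 3 below all of them. Between the groups the log2 difference was 0.06 ± 0.08 (95% interval -0.12 to 0.24), with an edgeR adjusted p of 0.860.

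TRESK, the calcineurin-activated leak channel of sensory neurons, is encoded by Kcnk18 (chromosome 19, 59219648 to 59237370). It measured 7.60, 9.55 and 9.22 CPM in control mice against 9.84, 11.7 and 9.003 CPM in CreER-positive mice, with replicate 3 inside the range of the controls. The means were 8.79 ± 1.04 and 10.2 ± 1.37 CPM. Their log2 difference was 0.21 ± 0.12 (95% interval -0.06 to 0.48), with an edgeR adjusted p of 0.620. Within these ganglia, markers of 2 classes of small neurons were lower: 3 of 8 non-peptidergic nociceptor markers and 4 of 6 markers of C-fibre low-threshold mechanoreceptors fell by edgeR's adjusted p, where 0.549% of all genes did. Of another class of small neurons, peptidergic nociceptors, edgeR called 0 of 6 markers, where it called 0.726% of all genes. All 6 estimates were above 0, as were 50.9% over all tested genes. An unadjusted edgeR p under 0.05 was reached by 4 of the 6, where 10.5% of all tested genes reached it. DESeq2 called 1 of these 6 and limma-voom 0, where they called 1.93% and 0.721% of all genes. The summed level of the peptidergic list ran from 1996 to 2311 CPM over control mice and from 2465 to 2639 CPM over CreER-positive mice. Calca alone made up 1214 to 1482 CPM of it in control mice and 1526 to 1663 CPM in CreER-positive mice. The summed level of the non-peptidergic list ran from 1789 to 1855 CPM over control mice and from 1444 to 1600 CPM over CreER-positive mice. That sum includes the 3 called markers, with control and CreER-positive means of 522 and 387 CPM (Plxnc1), 139 and 59.8 CPM (Mrgprd) and 122 and 76.2 CPM (Prkcq). P2rx3, the 1 marker of the 8 with an estimate above 0, had means of 467 and 492 CPM. The part of these classes in the level of Kcnk18 was not tested. In bulk RNA, fewer cells of a type and less RNA per cell cannot be told apart.

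Kcnq3 (chromosome 15, 65986374 to 66286636) encodes Kv7.3, a subunit of the neuronal M-channel. It measured 5.56, 6.77 and 5.79 CPM in control mice against 8.27, 7.52 and 6.60 CPM in CreER-positive mice. CreER-positive replicates 1 and 2 lay above every control, and replicate 3 lay below control replicate 2. The log2 fold change of 0.30 ± 0.12 was the highest of the 9, with a 95% interval from 0.04 to 0.57 and an edgeR adjusted p of 0.392. It also had the fewest counts of the 9, down to 226 in control replicate 1. The non-coding gene Gm27242 (66279258 to 66311092) shares 7379 bases with Kcnq3 and has 4.83% as many counts. With all of these taken off the log2 fold change was 0.33, although most of Gm27242 lies outside Kcnq3. Kcnk2, Kcnk10, Kcnk13 and Kcnq5 each overlap a RefSeq gene that has no count of its own here. Reads of such partners cannot be told apart from theirs, and for Kcnk2 this holds also after the subtraction of Pdcd5-ps.

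Kcnq5 (chromosome 1, 21398399 to 21962650) encodes Kv7.5, an M-channel subunit of unmyelinated fibres. It measured 68.5, 59.9 and 61.0 CPM in control mice against 69.1, 64.6 and 67.4 CPM in CreER-positive mice. Control replicate 1 lay above 2 of the 3 CreER-positive libraries. Kcnq5 differed by 0.09 ± 0.06 on the log2 scale (95% interval -0.05 to 0.23), with an edgeR adjusted p of 0.699.

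**Figure D3:**
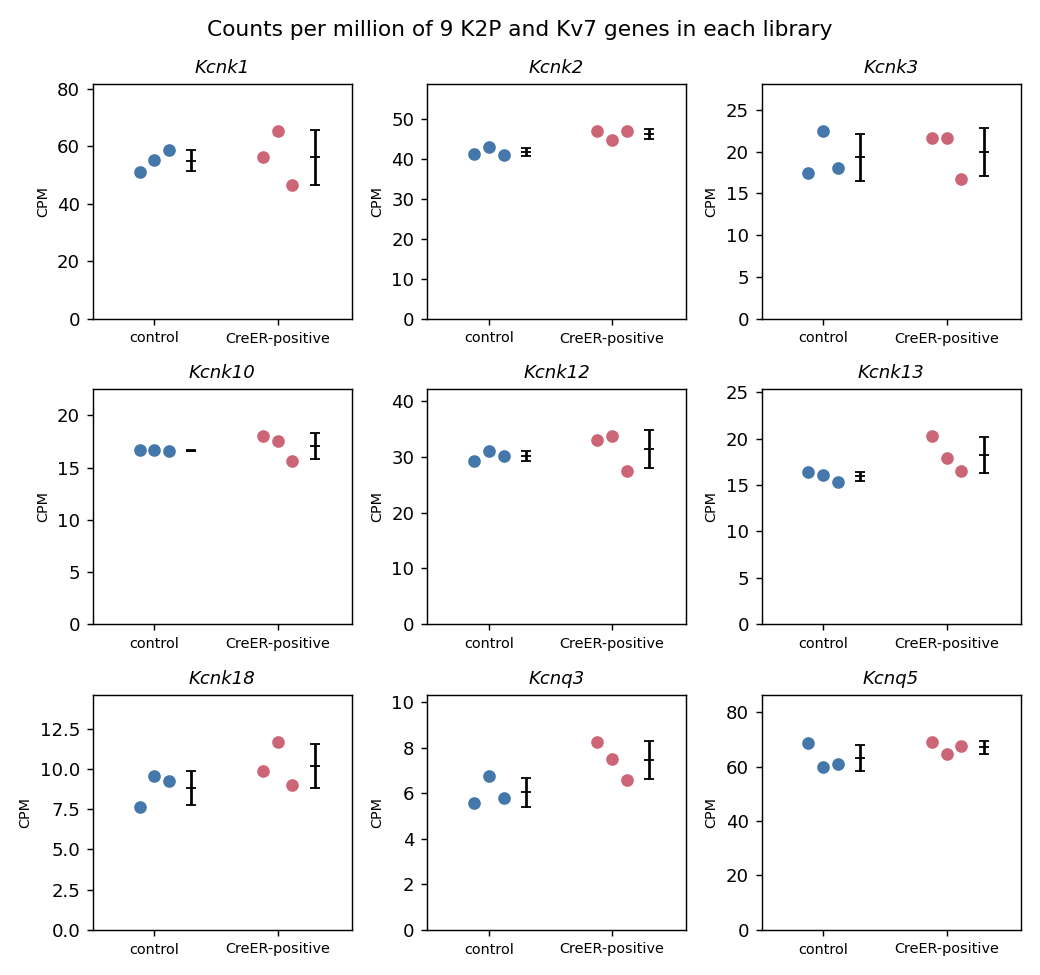
Each panel shows 1 gene, with CPM on an axis that starts at 0, 1 point a library in replicate order, and the mean with its SD as a bar beside the points (n = 3). The red CreER-positive points lie above all blue control points in the panels of Kcnk2 and Kcnk13 and overlap them in the other 7. Such separation was seen for 6.63% of all tested genes. Counts are as deposited, before any subtraction of overlapping genes.

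Libraries of 1 group differed among themselves. All 9 genes were above their control mean in CreER-positive replicates 1 and 2, by a median of 0.17 on the log2 scale in both. In replicate 3, 5 of 9 were above it, with a median of 0.04, and 4 genes (Kcnk1, Kcnk3, Kcnk10 and Kcnk12) had their lowest value of all 6 libraries there. Control replicate 2 was as high, with 8 of 9 above the control mean and a median of 0.04. The summed level of the 9 genes was 254, 261 and 256 CPM in control mice against 284, 285 and 253 CPM in CreER-positive mice. The summed level of the 10 pan-neuronal markers had the same order in the CreER-positive libraries, 7820, 8128 and 6718 CPM, against 6796 to 7475 CPM in the controls. Most of that sum was Tubb3, Uchl1, Prph and Snap25. The order held for these and for Rbfox3, Pou4f1 and Avil, but not for Isl1, Syt1 and Elavl4. Of the 10 markers edgeR called 0, where it called 0.726% of all genes, and their median log2 fold change was -0.00. All 5 fibroblast, 6 macrophage, 4 endothelial and 4 red blood cell markers were highest in CreER-positive replicate 3. The summed level there was 1423 CPM for the fibroblast list (819 to 1082 CPM in the controls). It was 81.9 CPM for the endothelial list (53.3 to 59.3 CPM in the controls) and 74.3 CPM for the red blood cell list (28.5 to 37.8 CPM). The summed level of 5 satellite glia markers was also highest there (2527 CPM, 1846 to 1989 CPM in the controls), but only 2 of the 5, Fabp7 and Apoe, were, and Apoe made up 1636 CPM of the sum. Of 6 Schwann cell and myelin markers, 5 were highest in CreER-positive replicate 2 and 1 in replicate 3. Their summed level was 3522, 4282 and 4069 CPM in CreER-positive replicates 1 to 3 (3513 to 3880 CPM in the controls). The part of library composition in the values of the 9 genes was not tested. Without CreER-positive replicate 3 the median of the 9 genes was 0.15, 5 of 9 had an unadjusted edgeR p under 0.05 (18.6% of all genes, 10.6% as higher), and 0 passed after adjustment, where 2.45% of all genes did, 1.43% as higher. The lowest adjusted p were then those of Kcnk13 (0.0941) and Kcnq3 (0.0968). Control replicate 2 held skeletal muscle transcripts, with a summed level of 59.2 CPM for 6 markers against at most 8.46 CPM elsewhere. Without it and CreER-positive replicate 3 the median was 0.17, 6 of 9 had an unadjusted edgeR p under 0.05 (14.7% of all genes, 8.33% as higher), and again 0 of 9 were called, where 0.483% of all genes were, 0.14% as higher. Without control replicate 2 alone the median was also 0.17.

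**Figure D4:**
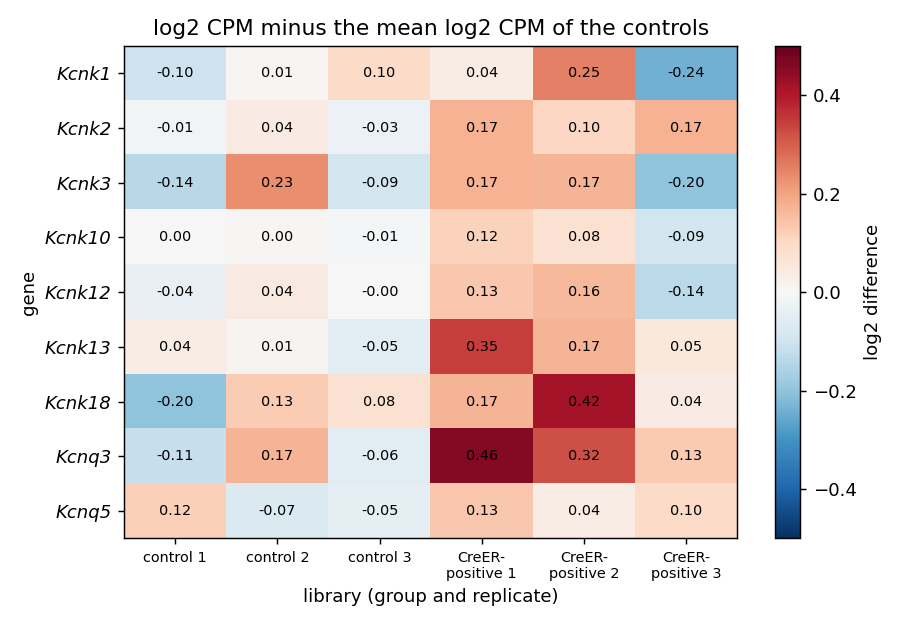
Each cell gives the log2 CPM of a gene (row) in a library (column) minus its mean over the controls, in red where higher and blue where lower. The columns of CreER-positive replicates 1 and 2 are red throughout, and that of replicate 3 is blue for Kcnk1, Kcnk3, Kcnk10 and Kcnk12.

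Of 7 other K2P genes, 6 could be tested. EdgeR and limma-voom called 0, where they called 0.726% and 0.721% of all genes. DESeq2 also called 0, where it called 1.93% of all genes, but it gave no adjusted p for Kcnk7 and Kcnk16. At an unadjusted edgeR p under 0.05 there was 1, where 10.5% of all tested genes reached that level. That gene was Kcnk16 (TALK-1, a channel of pancreatic islets), on 5, 7 and 7 counts in the controls and 21, 12 and 17 in the CreER-positive libraries, with a log2 fold change of 1.25, an edgeR adjusted p of 0.219 and no adjusted p from DESeq2. Kcnk9, encoding the acid-sensitive channel TASK-3, had -0.09 (0.808). Kcnq1, a Kv7 gene best known from heart and epithelia, had -0.08 (edgeR adjusted p 0.773). Of 5 KCNE genes, which encode small auxiliary subunits of Kv7 and other channels, 4 were tested. By edgeR 0 were called (0.726% of all genes), with 0 at an unadjusted p under 0.05 (10.5% of all genes). The 2 with the smallest p were Kcne5 (0.40, edgeR adjusted p 0.651) and Kcne4 (-0.17, 0.767).

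Among genes that regulate these channels, 1 rose. Chrm3, the Gq-coupled muscarinic receptor M3 whose relatives close Kv7 channels, measured 1.97, 2.49 and 2.25 CPM in control mice against 3.50, 3.56 and 4.08 CPM in CreER-positive mice. The CreER-positive libraries lay above all controls, as for 6.63% of all tested genes. The log2 fold change was 0.73 ± 0.13 with an edgeR adjusted p of 0.04997, just inside the threshold. The call was lost with upper-quartile factors (0.0510), with total counts alone (0.0682), relative to pan-neuronal markers (0.302) and after leaving out any of the 3 controls (0.115 to 0.222), CreER-positive replicate 1 (0.0918) or replicate 2 (0.1001). By DESeq2 its adjusted p was 0.00246. It was the single call among 16 tested genes of Gq signalling and M-current scaffolds (0.726% of all genes were called, 0.177% as higher), whose median log2 fold change was -0.02. F2rl1, the protease-activated receptor PAR2, had the next smallest p, with -0.91 and an edgeR adjusted p of 0.258 on 23 to 65 counts. Of 10 genes of calcineurin, MARK kinases and 14-3-3 proteins, which regulate TRESK, 0 were called by edgeR (0.726% of all genes). Of these 10, 0 had an unadjusted edgeR p under 0.05 (10.5% of all genes). The 2 with the smallest p were Ywhag, a 14-3-3 protein gene (0.27, 0.498), and the calcineurin subunit gene Ppp3r1 (-0.07, 0.792). Without CreER-positive replicate 3, Ywhag was called higher (0.40, edgeR adjusted p 0.0162). Rest, which encodes a repressor of neuronal genes, and Sp1, an activator, are known to act on Kcnq genes, and neither was called (-0.10 and -0.01, edgeR adjusted p 0.706 and 0.974).

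The genes with the pattern most like that of Kcnk2 and Kcnq3, the 2 members with the smallest p, were sought among 16303 genes of at least 1 CPM on average, by the root-mean-square difference of centred log2 CPM over the 6 libraries. For Kcnk2 these were Zhx2 (0.02), Ak7 (0.02) and Marchf3 (0.02), none of them called by edgeR. For Kcnq3 they were Abhd15 (0.05), the potassium channel gene Kcnh5 (0.05) and Gm36198 (0.06), also uncalled. Both searches used the counts as deposited. The pattern of Kcnk2 over the libraries differed once the Pdcd5-ps counts were taken off, and its search was not repeated on those values. Kcnh5 measured 1.72, 2.06 and 1.79 CPM in control mice against 2.37, 2.42 and 2.07 CPM in CreER-positive mice, a log2 fold change of 0.30.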

How the data were processed

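Per the labels, each library held total RNA of the lumbar ganglia of 1 mouse. Per the submitters' processing notes, the authors aligned reads with GSNAP to GRCm38 (mm10). How reads were counted, on which annotation and with which strand rule, is not given in the sources used here. Overlapping genes therefore cannot be separated. The deposited count is a raw whole number per NCBI gene, and the deposited RPKM, not used in any test, is that count per kilobase of width, scaled to a library total. The sum of counts lies 1.46% to 2.17% above that total, so some reads appear to count for more than 1 gene. For 77.7% of genes the width is within 5% of the gene span.

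Genes were filtered with filterByExpr and scaled with TMM factors, and groups were compared by the quasi-likelihood test of edgeR 4.0.16 (R 4.3.3). The SE is the log2 fold change divided by the root of F. The fit was tested on simulated data that gave every gene the same dispersion, so libraries of unlike composition were not covered. Alternatives were other scalings and filters, DESeq2 1.42.0, limma-voom (limma 3.58.1), robust estimation and leaving out libraries. Subtracting overlapping genes was added after seeing the data. Named genes were all 9 members, in each related list the called genes and the 2 with the smallest p, and the 3 genes of most like pattern for the called members or, with none, for the 2 with the smallest p. Related lists held 7 other K2P, 1 other Kv7, 5 KCNE, 17 Gq and scaffold, 10 TRESK regulator genes and 2 transcription factors. Other genes of these families are not reported here. The members and lists were chosen with earlier results of these data known.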

Additional observations from a re-analysis of the deposited data

How the results depend on the processing

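The count of 0 called genes among the 9 held under all 17 alternatives, and 143 of their 153 log2 fold changes were above 0. Relative to pan-neuronal markers, Kcnk1 (-0.0723), Kcnk3 (-0.0553), Kcnk10 (-0.0569) and Kcnk12 (-0.0386) turned negative. Leaving out 1 library gave ranges of -0.0972 to 0.1447 for Kcnk1, -0.017 to 0.1745 for Kcnk3 and -0.0001 to 0.0965 for Kcnk10. The median of the 9 genes was 0.0016 relative to pan-neuronal markers, 0.0685 to 0.172 without 1 library and 0.1687 without control replicate 2 and CreER-positive replicate 3. The 160 calls over all genes (39 higher, 121 lower) became 425 by DESeq2, 254 with no filter and 106 relative to pan-neuronal markers (9 higher, 97 lower), and 60 to 549 without 1 library: 69, 60 and 76 without control replicates 1, 2 and 3, and 549 without CreER-positive replicate 3. The cause of these shifts was not tested. The call in the Gq list (Chrm3) was 0 with upper-quartile factors, total counts, pan-neuronal markers and without control replicate 2 and CreER-positive replicate 3, and 0 to 2 without 1 library; Chrm3's log2 fold change was 0.65 to 0.81 over all alternatives. The TRESK regulator list gave 0 to 1 without 1 library. The estimate of Sp1, near 0, changed sign (-0.0808 to 0.0466 without 1 library). Per kilobase of exon, control levels were 24.6 (Kcnk1), 15.3 (Kcnk12), 8.43 (Kcnk2), 8.21 (Kcnq5), 5.12 (Kcnk13), 4.85 (Kcnk3), 2.53 (Kcnk18), 1.90 (Kcnk10) and 0.411 (Kcnq3). No counts of overlapping genes were taken off for these levels. No paired analysis was possible because the labels give no replicate numbers that pair the mice. With 3 mice a group, the width of each interval limits what can be said of small differences.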
